A study of Mus musculus with 41 samples.

Results

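The genes of MHC class I antigen presentation were followed through 13 RNA-seq libraries of mouse androgenetic haploid embryonic stem cells (AG-haESCs), which carry a single genome of paternal origin. The 10 genes, taken by symbol out of 24028 gene symbols, were B2m, H2-K1, H2-D1, Tap1, Tap2, Tapbp, Psmb8, Psmb9, Psmb10 and Nlrc5. The study asked whether a 2-step culture with inhibitors of Src and Gsk3β keeps paternal imprints better than the usual inhibitors of Mek1/2 and Gsk3β. All 10 symbols were found in every library. Psmb9 and Psmb10, inducible catalytic subunits of the proteasome, were the members called higher in wild-type lines kept in TSa2i/L than in a wild-type line kept in 2i/L, and they rose in lines moved from 2i/L into the second medium of TSa2i/L. Of all genes tested, 5.72% were called higher in the first of these comparisons and 2.22% in the other. The calls in the first depended on single libraries, and in the other Psmb10 lost its call when a single line was left out. With no filter on low values Psmb9 was called in neither, and Psmb10 in the first only.

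All lines were labelled as strain C57BL/6, and the study also lists an actin-EGFP transgene for TSa2i-14. They were grown on fibroblast feeders and kept haploid by regular cell sorting, and RNA was taken from small numbers of haploid cells. The wild-type line 2i-14 was kept in 2i/L, a serum medium with LIF, PD0325901 (a Mek1/2 inhibitor) and CHIR99021 (a Gsk3β inhibitor), and was sequenced at p18, at p39 and at p50. The wild-type lines TSa2i-14 (p22, p47 and p54) and TSa2i-C57 (p9 and p58) were derived in a2i/L, a serum medium in which the Src inhibitor CGP77675 replaces PD0325901, and were then kept in the serum-free form of it, SF/a2i/L. The sequence of both steps is called TSa2i/L. 2i-O48, in 2i/L, lacks the imprint control regions H19-DMR and IG-DMR. The line 2i-O48-TKO, also in 2i/L, lacks the H19 gene in addition. The switched cultures were 2i-14 and both deleted lines after 5 passages in SF/a2i/L, with 1 library each. Passage numbers of the deleted lines and of the switched cultures are not given in the labels. Passages of a line are not independent lines, each deleted genotype is a single line, and the media differ in serum as well as in inhibitor, so that these cannot be told apart. By its name 2i-O48-TKO may descend from 2i-O48, which the labels do not state, so the deleted lines may not be independent of each other. Between wild-type cells in TSa2i/L and in 2i/L, medium and line cannot be told apart either, since 2i-14 is the one wild-type line in 2i/L and is absent from TSa2i/L.

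MHC class I molecules show peptides from inside the cell to T cells. The proteasome cuts proteins into peptides, the transporter of TAP1 and TAP2 carries the peptides into the endoplasmic reticulum, and tapasin holds the transporter next to an empty class I molecule until a peptide is bound. Embryonic stem cells are known for low surface class I, and interferon raises most genes of the pathway in many cell types, in part through NLRC5, a transactivator of class I promoters.

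The members lie on 3 chromosomes of NCBIM37 (mm9), the build of the files. H2-K1 (34132962 to 34137278, minus strand), Tapbp (34052844 to 34066235, plus strand), Psmb9 (34318932 to 34324697, minus strand), Tap1 (34324498 to 34334170, plus strand), Psmb8 (34334666 to 34338399, plus strand), Tap2 (34340472 to 34353266, plus strand) and H2-D1 (35399675 to 35404444, plus strand) are on chromosome 17, in the MHC. B2m (121973422 to 121978819, plus strand) is on chromosome 2. Psmb10 (108459628 to 108462292, minus strand) and Nlrc5 (96996663 to 97051172, plus strand) are on chromosome 8. The GENCODE vM1 annotation of that build calls 9 of the members protein-coding and Nlrc5 a lincRNA. Psmb9 and Tap1 stand head to head and their annotated starts overlap.

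Promoter windows of 250 bases before to 50 bases after the start were given by RefSeq (GRCm38.p6) for 8 of the members, and each window matched NCBIM37 once without a mismatch, which gave the positions used here. 6 windows are shown: Psmb9 and Psmb10 because these genes rose, and B2m, H2-K1, H2-D1 and Psmb8 because their windows hold a motif of an interferon-responsive type. Capitals mark matches, on either strand, to AANNGAAA (core of interferon regulatory factor sites), TTCNNNGAA (gamma-activated site type), CCAAT (the box of that name) and the NF-kB consensus, and a match on the opposite strand appears as its reverse complement.
Psmb9, chr17:34324226-34324525, minus strand: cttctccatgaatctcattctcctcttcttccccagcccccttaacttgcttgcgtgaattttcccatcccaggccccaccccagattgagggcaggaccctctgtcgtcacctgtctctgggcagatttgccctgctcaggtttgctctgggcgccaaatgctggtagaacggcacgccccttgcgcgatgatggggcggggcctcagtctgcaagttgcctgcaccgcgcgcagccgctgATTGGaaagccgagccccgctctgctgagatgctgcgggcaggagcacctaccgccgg
Psmb10, chr8:108462243-108462542, minus strand: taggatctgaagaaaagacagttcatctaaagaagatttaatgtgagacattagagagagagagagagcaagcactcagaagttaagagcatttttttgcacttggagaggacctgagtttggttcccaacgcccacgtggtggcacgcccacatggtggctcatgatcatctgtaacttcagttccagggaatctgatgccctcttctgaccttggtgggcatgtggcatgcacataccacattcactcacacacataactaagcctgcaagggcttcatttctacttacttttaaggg
Psmb8, chr17:34334890-34335189, plus strand: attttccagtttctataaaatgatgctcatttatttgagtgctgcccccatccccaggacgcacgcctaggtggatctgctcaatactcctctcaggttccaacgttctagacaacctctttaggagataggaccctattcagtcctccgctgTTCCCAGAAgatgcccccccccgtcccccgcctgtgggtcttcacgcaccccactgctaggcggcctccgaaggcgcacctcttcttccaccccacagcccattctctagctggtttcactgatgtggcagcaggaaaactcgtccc
B2m, chr2:121973173-121973472, plus strand: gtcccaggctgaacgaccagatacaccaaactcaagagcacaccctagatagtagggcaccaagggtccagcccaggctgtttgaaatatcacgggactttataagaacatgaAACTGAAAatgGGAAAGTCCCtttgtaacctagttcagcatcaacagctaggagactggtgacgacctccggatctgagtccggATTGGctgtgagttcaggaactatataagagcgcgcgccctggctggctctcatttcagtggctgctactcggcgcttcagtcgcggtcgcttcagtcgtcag
H2-K1, chr17:34137229-34137528, minus strand: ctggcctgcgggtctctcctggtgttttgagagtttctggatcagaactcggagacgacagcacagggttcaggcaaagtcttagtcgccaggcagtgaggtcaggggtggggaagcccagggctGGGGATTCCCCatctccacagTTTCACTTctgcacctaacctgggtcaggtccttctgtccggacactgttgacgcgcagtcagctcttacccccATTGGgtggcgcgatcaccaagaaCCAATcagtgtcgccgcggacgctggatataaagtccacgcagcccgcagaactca
H2-D1, chr17:35399789-35400088, plus strand: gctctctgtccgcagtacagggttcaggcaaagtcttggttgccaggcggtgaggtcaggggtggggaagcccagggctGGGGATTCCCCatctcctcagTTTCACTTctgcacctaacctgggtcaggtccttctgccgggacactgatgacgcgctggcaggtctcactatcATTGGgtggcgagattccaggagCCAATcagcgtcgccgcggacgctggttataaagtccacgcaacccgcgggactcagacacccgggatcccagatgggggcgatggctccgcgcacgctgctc

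AANNGAAA stood in the windows of 3 of the 8 genes, B2m (bases -137 to -130 from the start), H2-K1 (-104 to -97) and H2-D1 (-150 to -143), and in 23.9% of 32851 promoters in the same table. In H2-K1 and H2-D1 the matched letters were the same. TTCNNNGAA stood in the window of Psmb8 alone, from base -97 to base -89, against 8.3% of promoters. The NF-kB consensus was matched in B2m (-126 to -117), in H2-K1 (-125 to -115) and in H2-D1 (-171 to -161), against 4.51% of promoters. In both heavy chain genes it was matched by overlapping stretches with the same letters, which end before the AANNGAAA match. CCAAT was found for 6 of the 8 genes (B2m, H2-D1, H2-K1, Psmb9, Tap1 and Tapbp), against 37.4% of promoters. None of the motifs searched stood in the window of Psmb10. The windows of Psmb9 and Tap1 share 275 of their 300 bases on opposite strands, so 1 stretch of DNA is counted for both. A match of letters is a description of the window and not a binding site. The interferon regulatory factor and NF-kB motifs were chosen after searches with other forms, so the shares beside them are no test. H2-K1 and H2-D1 are paralogs, and their matches are not independent. The RefSeq start lay 422 bases from the vM1 start for Psmb9, 474 for Psmb8 and 364 for H2-D1, and 0 or 1 base from it for the other windows shown.

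The authors deposited FPKM values, which are scaled to transcript length and library depth, with no counts. The smallest values implied a depth of 12700000 to 19700000 fragments, and 9258 to 10320 genes had an FPKM of at least 1. All 10 pluripotent cell markers, Pou5f1, Sox2 and Nanog among them, had an FPKM of at least 1 in all 13 libraries. The 15 fibroblast markers, all of which are listed in the files, summed to 2.17 to 98.7 FPKM in 2i-14, 1.70 to 2.12 in the deleted lines in 2i/L, 3.17 to 3.52 in the switched cultures and 2.06 to 140 FPKM in TSa2i/L. Their mean log2(FPKM + 1) stood out in 4 libraries, TSa2i-14 p54 (2.30), 2i-14 p39 (2.11), TSa2i-C57 p58 (1.29) and TSa2i-14 p22 (0.543), against a range of 0.142 to 0.276 elsewhere. Col3a1, a fibrillar collagen, was listed at 0 in 2i-14 p18 and p50, both deleted lines in 2i/L, switched 2i-O48, TSa2i-14 p47 and TSa2i-C57 p9. Ptprc, which defines leukocytes, was listed at 0 in all libraries but TSa2i-C57 p9, where it was 0.0143 FPKM. In bulk libraries, fewer cells of a type and less RNA per cell cannot be told apart.

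The members spanned the range from abundant to barely detected. B2m, the light chain common to all class I molecules, had a median of 143 FPKM over the 13 libraries, and its lowest library (103 FPKM, 2i-O48-TKO) stood above the highest library of every other member. Psmb10 followed at a median of 19.5 FPKM, then the heavy chains H2-D1 at 14.6 FPKM and H2-K1 at 11.8 FPKM, then tapasin (Tapbp) at 6.15 FPKM and Psmb9 at 4.77 FPKM. The ranges of these neighbours overlapped: Psmb10 ran from 10.08 to 41.3 FPKM, H2-D1 from 4.42 to 46.8 FPKM, H2-K1 from 2.53 to 27.5 FPKM, Tapbp from 3.66 to 14.2 FPKM and Psmb9 from 0.777 to 12.9 FPKM. Tap1 had a median of 0.509 FPKM, Psmb8 of 0.351 FPKM, Tap2 of 0.0415 FPKM and Nlrc5 of 0. Tap1 and Psmb8 overlapped as well. The level of 3 fragments was not reached by Tap2 in 7 libraries, by Nlrc5 in 8 and by Psmb8 in 2. Differences in Nlrc5 were not detectable at this depth. Those in Tap2 were limited by it, although Tap2 held about 15.3 fragments in TSa2i-14 p47 and 19.5 in TSa2i-C57 p58. TSa2i-14 p54, which also had the highest fibroblast mean, held the highest value of 5 members.

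**Figure D1:**
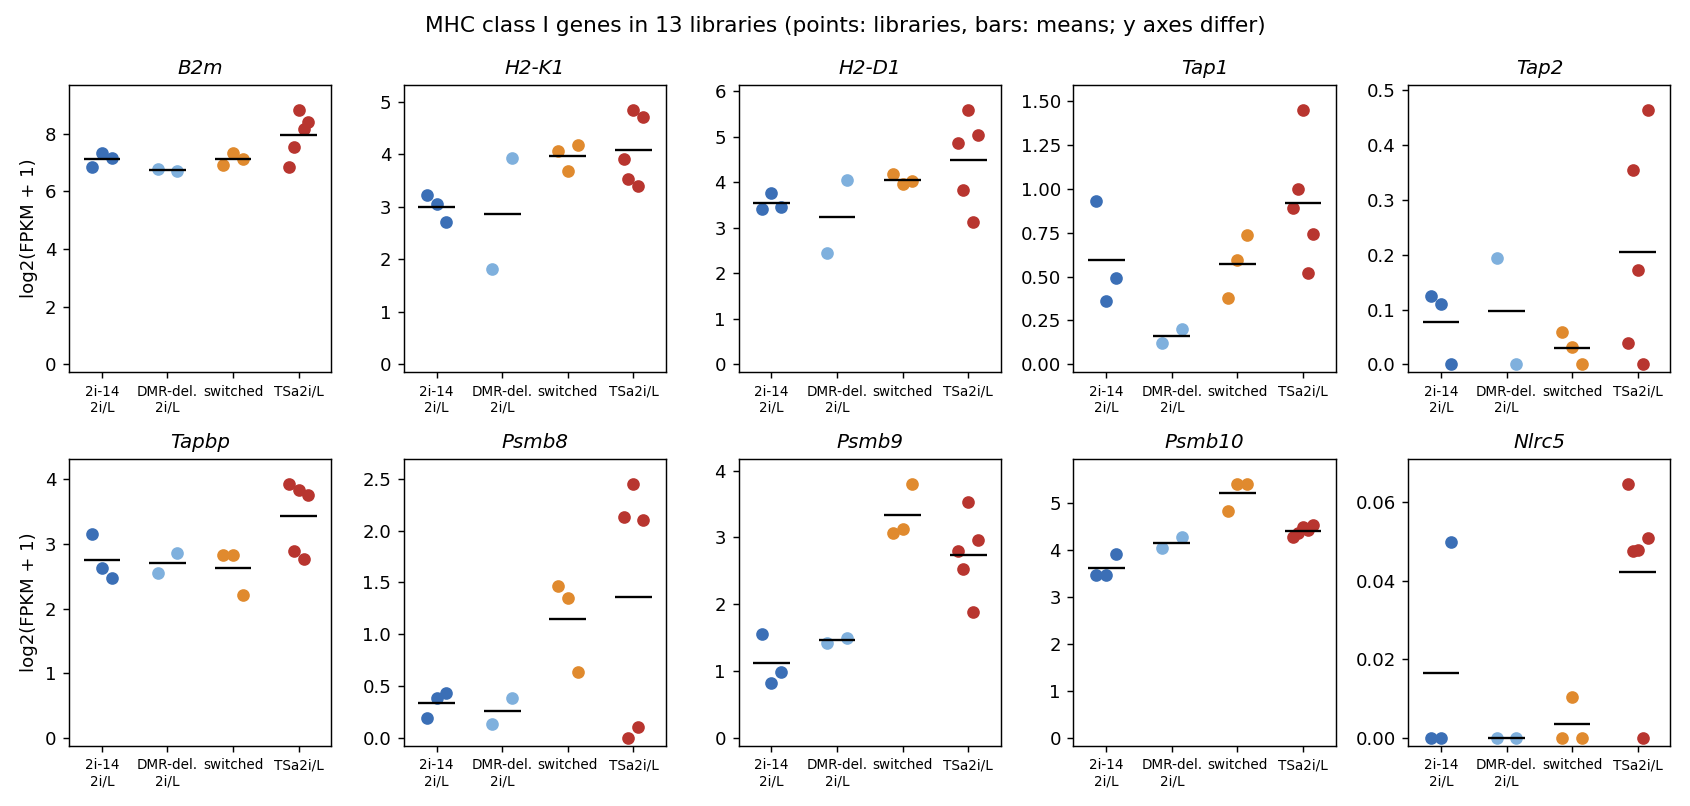
Level of each member, log2(FPKM + 1) on the y axis, in 2i-14 kept in 2i/L (3 libraries), the 2 DMR-deleted lines in 2i/L, the 3 switched cultures and the 5 TSa2i/L libraries. Points are libraries and bars are means, and the scale differs between panels. Psmb9 is lower in each of the 5 libraries in 2i/L than in each switched or TSa2i/L library, Psmb10 is highest in the switched cultures, and the TSa2i/L libraries spread widely for B2m, H2-D1 and Psmb8.

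The first comparison asked how the wild-type cells differ between TSa2i/L (5 libraries) and 2i/L (3 libraries of 2i-14). Of the 7 members with an FPKM of at least 1 in 3 or more of these libraries, Psmb9 and Psmb10 were called higher and none lower. Of the 10387 genes tested, 7.57% were called by limma at an adjusted p under 0.05, 5.72% as higher and 1.85% as lower. The median log2 change of the 7 members was 0.95, that of all genes tested 0.07, and the 7 members tested had changes above 0. An unadjusted p under 0.05 was reached by 5 of the 7 members and by 23.1% of all genes. Tap1, Tap2 and Nlrc5 did not pass the filter on low values, and Psmb8 and Psmb9 passed only through TSa2i/L, the group in which they were higher, with 0 and 1 of the 3 libraries of 2i-14 and 3 and 5 of the 5 TSa2i/L libraries at 1 FPKM or more. These counts and medians therefore do not describe all 10 members. With no filter Psmb9 was not called (limma adjusted p = 0.0676) and Psmb10 was (0.0310), and at a mean FPKM of at least 5 Psmb9 was not tested. Centring the libraries on their median moved the median of all genes from 0.07 to -0.05 and the share of called genes that were higher from 75.6% to 56.2%, with Psmb9 and Psmb10 called either way.

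Psmb9, the inducible subunit beta 1i, was 1.93, 0.777 and 0.994 FPKM in the p18, p39 and p50 libraries of 2i-14. In TSa2i-14 p22, p47 and p54 it was 5.93, 4.77 and 10.5 FPKM, and in TSa2i-C57 p9 and p58 it was 2.69 and 6.76 FPKM. Every TSa2i/L library was above every 2i-14 library, with a log2 change of 1.61 (SE 0.32, limma adjusted p = 0.0143), a 3.06-fold difference on the FPKM + 1 scale. Psmb10, the inducible subunit beta 2i, was 10.08, 10.104 and 14.002 FPKM in 2i-14 and 18.3, 19.5 and 21.4 FPKM in TSa2i-14, with 20.4 and 21.97 FPKM in TSa2i-C57. The groups did not overlap and the TSa2i/L libraries lay close together, with a log2 change of 0.79 (SE 0.17, limma adjusted p = 0.0183), or 1.73-fold. Psmb8, the inducible subunit beta 5i, was 0.144 to 0.351 FPKM in 2i-14. It was 3.37 FPKM in TSa2i-14 p22, 4.46 FPKM in p54 and 3.29 FPKM in TSa2i-C57 p58, but 0.0747 FPKM in TSa2i-C57 p9 and listed at 0 in TSa2i-14 p47, where 3 fragments are worth 0.0983 FPKM. The TSa2i/L libraries thus lay on both sides of 2i-14, with a log2 change of 1.02 (SE 0.54, limma adjusted p = 0.294).

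The calls of Psmb9 and Psmb10 in this comparison depended on single libraries. Without 2i-14 p39 neither was called (limma adjusted p = 0.0631 for Psmb9 and 0.0815 for Psmb10), without 2i-14 p18 Psmb10 was not (0.0643), and without 2i-14 p50 Psmb9 was not (0.0538). Without the 3 libraries with the most fibroblast RNA, which leaves 2 against 3 libraries, the log2 change was 1.13 for Psmb9 (limma adjusted p = 0.135) and 0.66 for Psmb10 (0.286). With the fibroblast mean as a covariate the changes were 1.59 (limma adjusted p = 0.0121) and 0.80 (0.0241). 2i-14 p39, at a fibroblast mean of 2.11, had the lowest Psmb9 value of all libraries. Within TSa2i/L, however, Psmb9 rose in the order of the fibroblast mean. It went from 2.69 FPKM in TSa2i-C57 p9 (mean 0.146) to 10.5 FPKM in TSa2i-14 p54 (mean 2.30), and the part of fibroblast RNA in this order was not tested.

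H2-K1, a classical heavy chain, was 8.36, 7.31 and 5.50 FPKM in 2i-14 at these passages. It was 14.05, 10.5 and 27.5 FPKM in TSa2i-14 p22, p47 and p54 and 9.52 and 25.0 FPKM in TSa2i-C57 p9 and p58. The groups did not overlap, but the log2 change of 1.08 (SE 0.33) missed the threshold with a limma adjusted p of 0.0755. H2-K1 passed it without TSa2i-C57 p9 (0.0432) and with the fibroblast mean as a covariate (0.0392). Counting members whose groups did not overlap gave H2-K1, Psmb9 and Psmb10, 3 of 7, where 11.8% of all genes tested were higher in this way. H2-D1, the other classical heavy chain, was 9.68, 12.6 and 9.93 FPKM in 2i-14, 28.3, 13.3 and 46.8 FPKM in TSa2i-14, and 7.78 and 31.7 FPKM in TSa2i-C57. The groups overlapped through TSa2i-C57 p9, with a log2 change of 0.95 (SE 0.46, limma adjusted p = 0.243). H2-K1 shared 7.29% and H2-D1 12.8% of the 50-base words of its transcripts with other genes, H2-D1 and H2-Q2 among them for H2-K1 and H2-Q2, H2-Q7 and H2-Q6 for H2-D1. The assignment of fragments among these paralogs by the authors' counting is therefore uncertain.

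B2m was 113 FPKM at p18, 159 FPKM at p39 and 143 FPKM at p50 in 2i-14, and 114, 183 and 447 FPKM in TSa2i-14 p22, p47 and p54. In TSa2i-C57 p9 and p58 it was 284 and 339 FPKM. TSa2i-14 p22 lay within the range of 2i-14 and the other 4 TSa2i/L libraries above it, with a log2 change of 0.84 (SE 0.36, limma adjusted p = 0.188). Without TSa2i-14 p22 the change was 1.12 and passed the threshold (limma adjusted p = 0.0309). TSa2i-C57 p9, with a fibroblast mean of 0.146, had 284 FPKM of B2m beside the lowest H2-K1 value outside 2i/L (9.52 FPKM). Tapbp was 7.88, 5.16 and 4.55 FPKM in 2i-14, 14.2, 6.46 and 13.3 FPKM in TSa2i-14 and 5.83 and 12.5 FPKM in TSa2i-C57. The groups overlapped, with a log2 change of 0.69 (SE 0.30, limma adjusted p = 0.201). Tap1 was 0.902, 0.282 and 0.405 FPKM in 2i-14 and 0.434 to 1.72 FPKM in TSa2i/L. Tap2 was at most 0.0905 FPKM in 2i-14 and at most 0.378 FPKM in TSa2i/L. Nlrc5 reached at most 0.0457 FPKM in any library.

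The second comparison asked what the move of a line from 2i/L to SF/a2i/L changed within 5 passages. Each line, 2i-14 (p50 as the control) and both deleted lines, was set against its own switched culture. Since both deleted lines may share an origin, their pairs may not be independent, and the p-values do not account for that. Again Psmb9 and Psmb10 rose and no member fell among the 6 members tested, since Psmb8 failed the filter here together with Tap1, Tap2 and Nlrc5. Psmb9 passed it through the switched cultures, with 2 of the 3 libraries before the switch at 1 FPKM or more. Of 9759 genes tested, 6.89% were called, 2.22% as higher and 4.66% as lower. The median log2 change of the 6 members was 0.94 against -0.09 over all genes. Median centring moved the median of all genes from -0.09 to 0.07 and the share of called genes that were higher from 32.3% to 55.1%, with both members called either way. 2i-14 p50 is also a control in the first comparison, so the 2 comparisons are not independent of each other.

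Psmb9 went from 0.994 to 7.40 FPKM in 2i-14, from 1.69 to 7.70 FPKM in 2i-O48 and from 1.83 to 12.9 FPKM in the line 2i-O48-TKO. It rose in each line, with a log2 change of 2.02 (SE 0.21, limma adjusted p = 0.00977), or 4.06-fold on the FPKM + 1 scale. Psmb10 went from 14.002 to 27.5 FPKM in 2i-14, from 15.4 to 41.1 FPKM in 2i-O48 and from 18.4 to 41.3 FPKM in the line 2i-O48-TKO. It rose in each line too, with a log2 change of 1.14 (SE 0.20, limma adjusted p = 0.0285), or 2.198-fold on the same scale. The groups did not overlap for these 2 members, as was the case for 11.5% of all genes in the same direction. Without the 2i-O48-TKO pair the log2 change of Psmb10 was 1.14 with a limma adjusted p of 0.177, and with no filter on low values neither gene was called (0.143 for Psmb9 and 0.146 for Psmb10). The fibroblast mean was at most 0.276 in all 6 libraries, and none of the 15 fibroblast markers passed the filter. Within this range the mean rose in each pair. It went from 0.164 to 0.268 in 2i-14, from 0.142 to 0.233 in 2i-O48 and from 0.153 to 0.276 in 2i-O48-TKO. The part of fibroblast RNA in the changes of Psmb9 and Psmb10 after the switch was not tested.

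**Figure D2:**
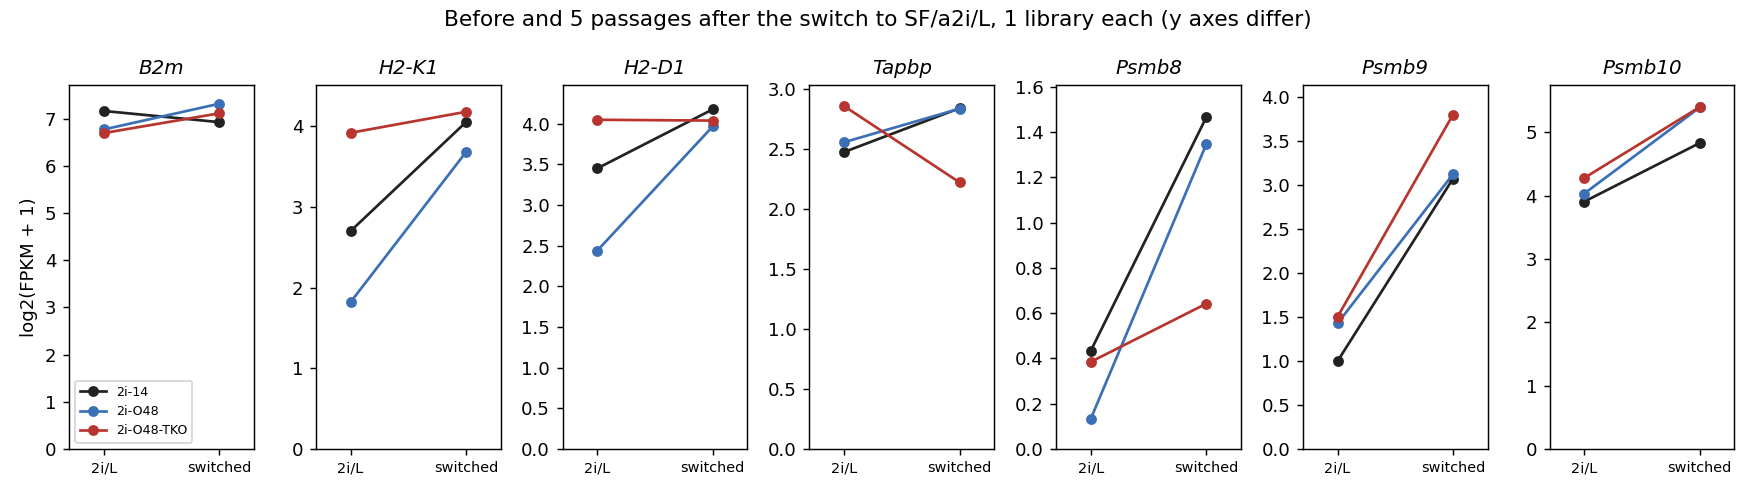
FPKM of 7 members as log2(FPKM + 1) in 2i/L and after 5 passages in SF/a2i/L, 1 library per point, with a line joining both cultures of 2i-14 (p50 before the switch), 2i-O48 and 2i-O48-TKO. Psmb9 and Psmb10 go up in all 3 lines, H2-D1 stays level in 2i-O48-TKO, B2m goes down in 2i-14, and Tapbp goes down in 2i-O48-TKO.

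Psmb8 went from 0.351 to 1.76 FPKM in 2i-14, from 0.0964 to 1.54 FPKM in 2i-O48 and from 0.306 to 0.560 FPKM in the line 2i-O48-TKO. It was higher after the switch in all 3 lines, but it had an FPKM of at least 1 in only 2 of the libraries and was not tested. H2-K1 went from 5.50 to 15.6 FPKM in 2i-14, from 2.53 to 11.8 FPKM in 2i-O48 and from 14.1 to 17.1 FPKM in the line 2i-O48-TKO. Before the switch 2i-O48 and 2i-O48-TKO were the lowest and the highest of the 5 libraries in 2i/L, and afterwards the 3 lines lay closer together. The log2 change of H2-K1 was 1.16 (SE 0.33, limma adjusted p = 0.0881), and it passed the threshold without the 2i-O48-TKO pair (1.61, limma adjusted p = 0.0479). H2-D1 went from 9.93 to 17.1 FPKM, from 4.42 to 14.6 FPKM and from 15.5 to 15.4 FPKM in the same order of lines, with a log2 change of 0.75 (SE 0.31, limma adjusted p = 0.195). H2-K1, Psmb9 and Psmb10 were higher in all pairs, 3 of 6 members, where 19.4% of all genes were.

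B2m went from 143 to 121 FPKM in 2i-14, from 108 to 159 FPKM in 2i-O48 and from 103 to 138 FPKM in the line 2i-O48-TKO. The lines moved in different directions, with a log2 change of 0.24 (SE 0.21, limma adjusted p = 0.503). Tapbp went from 4.55 to 6.15 FPKM, from 4.87 to 6.13 FPKM and from 6.24 to 3.66 FPKM in the same order of lines. Its log2 change was 0.00 (95% limits -0.63 to 0.64, limma adjusted p = 0.995), and its sign turned with the control passage and with the line left out. Tap1 went from 0.405 to 0.301 FPKM in 2i-14, from 0.0878 to 0.509 FPKM in 2i-O48 and from 0.148 to 0.663 FPKM in the line 2i-O48-TKO. Tap1 shares its promoter window with Psmb9, and the ratio of Psmb9 to Tap1 in FPKM was 2.14 to 2.75 in 2i-14, 12.3 to 19.2 in the deleted lines in 2i/L, 15.1 to 24.5 in the switched cultures and 4.79 to 10.07 in TSa2i/L.

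**Figure D3:**
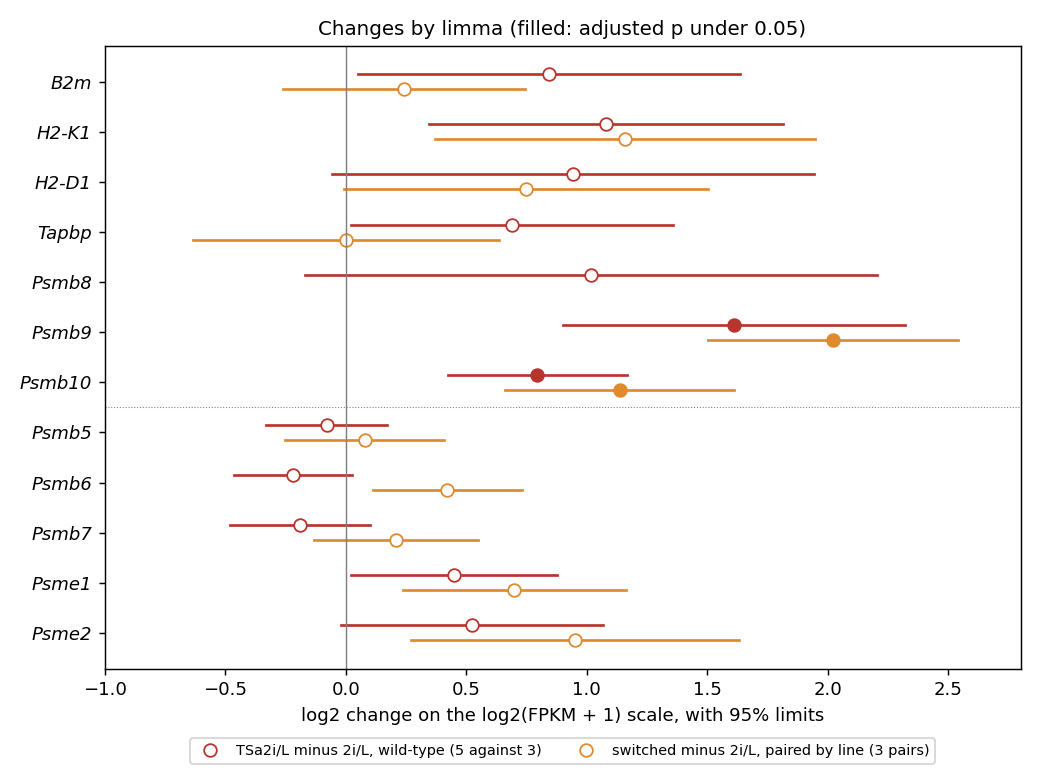
Log2 change by limma on the log2(FPKM + 1) scale with its 95% limits, for the tested members above the dotted line and for constitutive proteasome subunits and proteasome activator genes below it. Red is TSa2i/L minus 2i/L in wild-type cells (5 against 3 libraries), orange is switched minus 2i/L (3 pairs), and a filled point has an adjusted p under 0.05. Psmb9 and Psmb10 are filled in both comparisons, and the limits of Psmb5 and Psmb7 include 0 in both.

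The third comparison set the 3 switched cultures against the 5 TSa2i/L libraries, both in SF/a2i/L at the end but with different histories, lines and genotypes. Psmb10 was higher in the switched cultures, and it was the only one of 7 tested members called, where 14.6% of 10285 genes were called, 2.43% as higher and 12.2% as lower. Its switched values of 27.5, 41.1 and 41.3 FPKM lay above all TSa2i/L values of 18.3 to 21.97 FPKM, with a log2 change of 0.80 (SE 0.18, limma adjusted p = 0.0152). Groups of this kind, not overlapping and higher, were found for 4.65% of all genes. Psmb10 was not called without switched 2i-O48, without switched 2i-O48-TKO, or without TSa2i-14 p54 and TSa2i-C57 p58. Psmb9 was 7.40 to 12.9 FPKM after the switch and 2.69 to 10.5 FPKM in TSa2i/L, with a log2 change of 0.59 (limma adjusted p = 0.232). B2m was 121 to 159 FPKM after the switch and 114 to 447 FPKM in TSa2i/L, with a log2 change of -0.83 (SE 0.35, limma adjusted p = 0.131). The median change was -0.21 over the 7 members and -0.17 over all genes, which median centring moved to 0.09 for all genes, with the share of called genes that were higher going from 16.6% to 60.3%.

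The fourth comparison set 2i-O48 and 2i-O48-TKO against 2i-14, all in 2i/L. None of 6 tested members was called by limma, where 0.118% of 10164 genes were called, 0.0787% as higher and 0.0394% as lower, and none had an unadjusted p under 0.05, where 5.79% of all genes did. Psmb10, at 15.4 and 18.4 FPKM in the deleted lines, was above the 10.08 to 14.002 FPKM of 2i-14, with a log2 change of 0.54 (95% limits -0.04 to 1.12, limma adjusted p = 0.895), and 11.9% of all genes were higher without overlap. H2-K1 was 2.53 FPKM in 2i-O48 but 14.1 FPKM in 2i-O48-TKO, on both sides of 2i-14, with 95% limits of -1.43 to 1.18 for the log2 change. The deletions and the lines that carry them cannot be told apart here.

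The fifth comparison set late (p47, p54 and p58) against early (p22 and p9) TSa2i/L libraries, since the study takes passage 30 as the border. No gene of 10502 and none of 7 members was called by limma (0%), and 8.84% of all genes but none of the members had an unadjusted p under 0.05. All 7 members had a change above 0, with a median log2 change of 0.67 against 0.09 over all genes. In none of them did the groups separate with the late libraries higher, as they did for 18.5% of all genes. The lines differed member by member: H2-D1 was 28.3 FPKM in TSa2i-14 p22, 13.3 FPKM at p47 and 46.8 FPKM at p54, whereas it was 7.78 FPKM in TSa2i-C57 p9 and 31.7 FPKM at p58. Psmb10 was 18.3 to 21.97 FPKM throughout, with 95% limits of -0.34 to 0.57 for the log2 change between late and early. Of the late libraries, TSa2i-14 p54 and TSa2i-C57 p58 had fibroblast means of 2.30 and 1.29 and TSa2i-14 p47 one of 0.235, and the part of fibroblast RNA in the higher values was not tested.

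Psmb8, Psmb9 and Psmb10 take the places of Psmb5, Psmb6 and Psmb7, the catalytic subunits of the constitutive proteasome, when the immunoproteasome is built, and each was compared with its counterpart. The inducible subunits were minor at the RNA level in every library. Psmb9 was 0.0525% to 0.143% of Psmb6 in FPKM in the 5 libraries in 2i/L, 0.442% to 0.673% in the switched cultures and 0.204% to 0.889% in TSa2i/L. Psmb10 was 2.14% to 5.70% of Psmb7 in 2i/L, 5.21% to 10.5% in the switched cultures and 4.02% to 6.53% in TSa2i/L. Psmb8 was at most 0.0586% of Psmb5 in 2i/L and at most 0.921% in any library, in TSa2i-14 p54. Psmb9 alone separated 2i/L from the other libraries by this ratio. Psmb5 had log2 changes of -0.08 in TSa2i/L and 0.08 after the switch, Psmb6 of -0.22 and 0.42, and Psmb7 of -0.19 and 0.21, and none was called (limma adjusted p = 0.104 to 0.758).

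**Figure D4:**
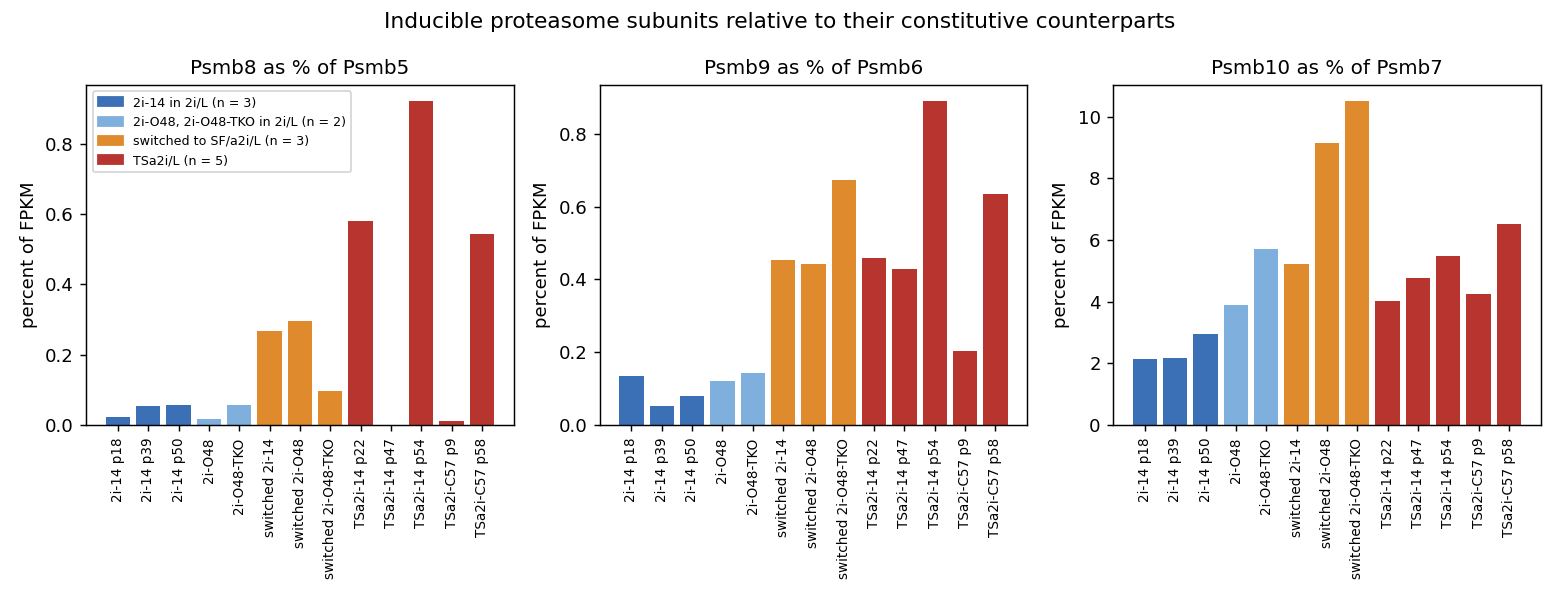
FPKM of Psmb8, Psmb9 and Psmb10 as a percentage of the FPKM of Psmb5, Psmb6 and Psmb7, in each of the 13 libraries, with bars coloured by group and a different scale in each panel. Psmb9 stays at or under 0.143% in the 5 libraries in 2i/L and is at least 0.204% in the others, and Psmb10 is highest in the switched cultures of 2i-O48 and 2i-O48-TKO.

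Other genes of the pathway were read from fixed lists. Among 17 genes of the constitutive proteasome and its activators, all tested, none was called in TSa2i/L against 2i/L (3 above 0, median log2 change -0.10) or after the switch (13 above 0, median 0.28). In switched against TSa2i/L cultures 8 of these 17 were higher, Psmb6 (0.56, limma adjusted p = 0.0105) and Psmb3 (0.67, 0.01004) among them, with a median of 0.46. Psme1 and Psme2, which form the interferon-inducible activator of the proteasome, had log2 changes of 0.45 and 0.52 in TSa2i/L (limma adjusted p = 0.194 and 0.234) and 0.70 and 0.95 after the switch (0.0835 and 0.0992). Psme1 was 109 to 150 FPKM in 2i/L and 191 to 226 FPKM in the switched cultures, without overlap. Of all genes tested in the switch comparison, 11.5% were higher without overlap.

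Of 8 factors for folding and peptide trimming in the endoplasmic reticulum, 6 were tested and none was called in either of the first 2 comparisons. The class I chaperones Canx and Calr had log2 changes of 0.13 and 0.29 in TSa2i/L and 0.11 and -0.22 after the switch, and the oxidoreductase Pdia3 had -0.02 and -0.55. Calr and Pdia3 were lower in switched than in TSa2i/L cultures, by -0.87 and -0.78 on the log2 scale (limma adjusted p = 0.00366 and 0.0131). Erap1, which trims peptides, and Tapbpl, a tapasin relative, stayed at or under 1.01 FPKM in every library and were not tested. Of 13 non-classical class I genes 3 were tested and none was called. H2-M3, which presents formylated peptides, was 1.53 to 2.59 FPKM in 2i-14, 2.22 and 2.89 FPKM in the deleted lines, 5.39 to 6.65 FPKM after the switch and 2.73 to 7.68 FPKM in TSa2i/L. All 8 of the latter libraries except TSa2i-14 p47 exceeded every library in 2i/L, with log2 changes of 0.90 (limma adjusted p = 0.0606) and 0.94 (0.0506) in the first and second comparisons. H2-T23 was at most 0.865 FPKM and was not tested.

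Of 12 regulators of class I transcription counted here, 9 were tested, and limma called none in either of the first 2 comparisons, with 1 and 3 at an unadjusted p under 0.05 and median log2 changes of 0.05 in TSa2i/L and -0.07 after the switch. Over all genes tested, 23.1% and 26.1% had an unadjusted p under 0.05 in these comparisons. Irf1, an activator of class I promoters, was 5.48 to 15.0 FPKM in all libraries, with log2 changes of -0.21 and 0.10. Irf2 was at most 0.254 FPKM, and Rfx5, which binds class I promoters, was at most 1.22 FPKM, and neither was tested. Of 12 genes for interferon receptors, their ligands and the proteins that pass on their signals, 9 were tested and limma called none in either comparison, with 1 and 4 at an unadjusted p under 0.05, beside the same shares of all genes. Their median log2 change was 0.35 in TSa2i/L and -0.18 after the switch, where 2 of the 9 were above 0. These were Irf9, a part of the complex that carries type I interferon signals, and Stat2, another part of it. Irf9 went from 4.41 to 11.7 FPKM in 2i-14, from 3.66 to 7.21 FPKM in 2i-O48 and from 4.13 to 5.55 FPKM in the line 2i-O48-TKO (log2 change 0.80, limma adjusted p = 0.102). Stat2 went from 1.61 to 3.18, from 0.883 to 3.29 and from 1.71 to 3.74 FPKM in the same order of lines (0.89, 0.0506). For both, the groups before and after the switch did not overlap, as was the case for 11.5% of all genes in the same direction. Ifngr1, Ifngr2 and Jak2 of the same list were lower after the switch without overlap. Ifngr1 was 3.88 to 5.38 FPKM before and 1.96 to 3.21 FPKM after. Ifngr2 was 1.40 to 2.63 FPKM before and 0.834 to 1.22 FPKM after, and Jak2 0.627 to 0.828 and 0.103 to 0.550 FPKM. Ifng was listed at 0 in all libraries and Ifnb1 in all but 2i-14 p50, at 0.0971 FPKM.

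The members did not move as a block across the 13 libraries. Over the 21 pairs of the 7 members with enough signal, Pearson's r of log2(FPKM + 1) had a median of 0.53, and 13 pairs were over 0.5. The heavy chains H2-K1 and H2-D1, which share transcript sequence, had an r of 0.90, H2-D1 and Psmb8 of 0.87, and Psmb9 and Psmb10 of 0.82. Psmb10 and Tapbp were the pair below 0, at -0.08. The points share lines, media and passages, so these values describe the libraries. With the fibroblast mean, r was 0.62 for B2m, 0.60 for H2-D1, 0.51 for Psmb8, 0.45 for Tapbp, 0.40 for H2-K1, 0.11 for Psmb9 and -0.20 for Psmb10. The part of fibroblast RNA in these correlations was not tested. The switched cultures held the 3 highest values of Psmb10 and, in 2i-O48-TKO, the highest of Psmb9. Their fibroblast means were 0.233 to 0.276, above the 0.142 to 0.164 of their controls in 2i/L. Within TSa2i/L, Psmb9, H2-K1 and H2-D1 each rose in the order of the fibroblast mean, H2-D1 from 7.78 to 46.8 FPKM. The ratio of H2-D1 to H2-K1 was 0.817 to 2.01, and that of B2m to the sum of both heavy chains ran from 2.70 in TSa2i-14 p22 to 16.4 in TSa2i-C57 p9.

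**Figure D5:**
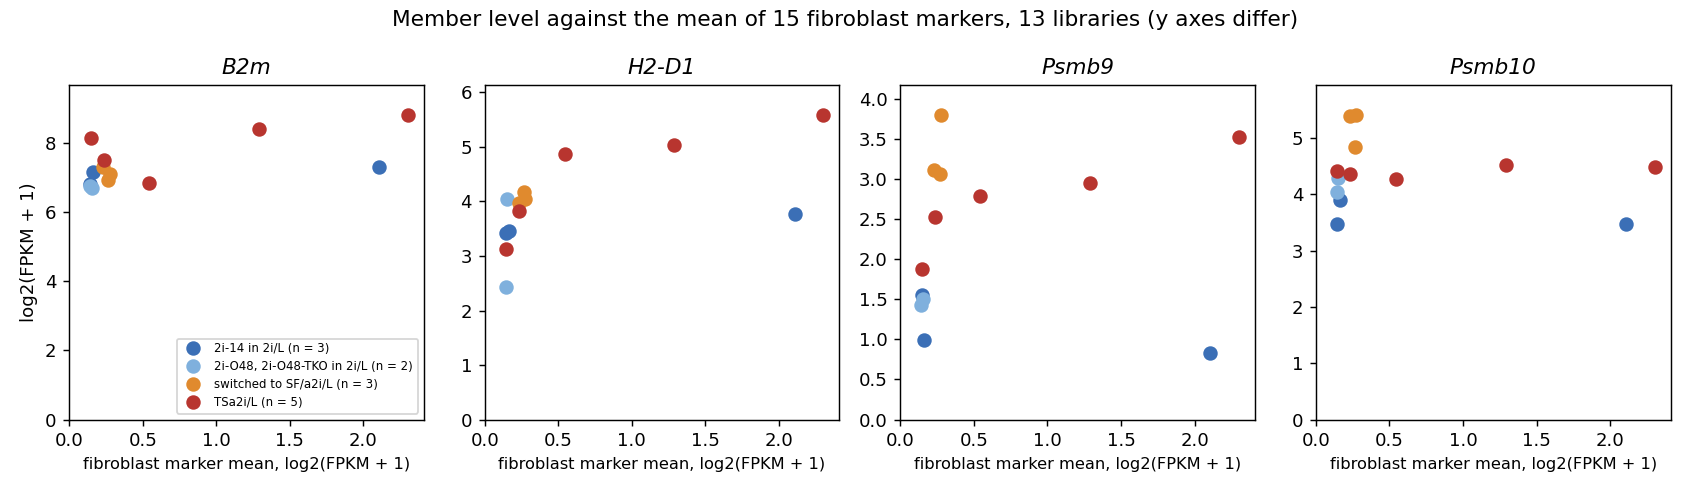
Level of B2m, H2-D1, Psmb9 and Psmb10, log2(FPKM + 1) on the y axis, against the mean log2(FPKM + 1) of 15 fibroblast markers in each of the 13 libraries, coloured by group. The 3 switched cultures hold high Psmb9 and the highest Psmb10 at fibroblast means of 0.233 to 0.276, against 0.142 to 0.164 in their controls in 2i/L. The library 2i-14 p39, at 2.11, has the lowest Psmb9. Within TSa2i/L, Psmb9 and H2-D1 rise in the order of the fibroblast mean.

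The 9 genes whose pattern was most like that of the members were found by Pearson's r with the mean of the 7 scaled members, over 13 libraries and among 10724 genes. They were Oasl1 (r = 0.91), Adar (0.90), Crabp1 (0.88), Gbp2 (0.88), Trim21 (0.88), Bst2 (0.87), Irf7 (0.86), Irf9 (0.86) and Igtp (0.86).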

How the data were processed

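Of 41 samples in the series, the 13 RNA-seq libraries were analysed, and the 28 methylation and chromatin samples were not analysed here. The authors amplified full-length cDNA of haploid cells, mapped the reads with TopHat (mm9), computed FPKM with Cufflinks and deposited those values; the submitters' processing notes name TopHat2 2.0.11, Bowtie2 2.2.2 and Cufflinks 2.2.1, and the annotation is not given in the sources used here. Amplification from few cells can add spread to low values, and FPKM carry no depth, which was estimated from the smallest values of 3737 genes longer than 1500 bases. Fold changes on log2(FPKM + 1) understate the changes of low genes.

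Each file listed 24525 rows with 24028 symbols, of which 268 stood on several rows that were summed. On log2(FPKM + 1), limma 3.58.1 (R 4.3.3) with an intensity trend was run over genes that reached an FPKM of 1 in a number of libraries equal to the size of the smaller group, with Benjamini-Hochberg adjustment over all genes tested at 0.05. The switch comparison had the cell line as a block. Its pairs share a line by their labels, 2i-14 p50 standing for the wild type, and the deviations of paired libraries from their group means had correlations of 0.172 (2i-14), -0.141 (2i-O48) and 0.358 (2i-O48-TKO). Nothing in the labels says that libraries of a line came from separate cultures, so p-values measure the spread between these libraries. The fits were also run on simulated data with independent noise for each library, which does not cover dependence between passages of a line.

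The text names all 10 members and fixed genes of the lists (constitutive counterparts, activator, chaperones, regulators). It also names up to 3 called genes with the largest change per list, and the 9 genes with the most similar profile. Psmb3, H2-Eb1, Ciita, Col3a1, Ptprc, Ifng, Ifnb1, Stat2, Ifngr1, Ifngr2 and Jak2 were named after their values were seen. One gene that these rules also name is not reported here and is left out of the lists. Members and lists were chosen with earlier results of these data known. The lists also held pluripotent cell, fibroblast, leukocyte and MHC class II, and endoderm markers. Promoters were taken from RefSeq, and the interferon regulatory factor and NF-kB motifs were set after other forms of them had been searched. Alternatives covered the pseudocount, the filter, scaling, the trend, repeated symbols, the block, controls, fibroblast-rich libraries and the omission of single libraries or lines. A fibroblast covariate and 2i-14 p39 as the control were added after the data were seen. Python 3.11.15, numpy 2.4.6, pandas 2.3.3, scipy 1.17.1 and matplotlib 3.10.9 were used.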

Additional observations from a re-analysis of the deposited data

Results flagged for a closer look

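Nlrc5 was listed at 0 in TSa2i-C57 p9 and was 0.0335 to 0.0457 FPKM in the other 4 TSa2i/L libraries, so that its gap to the nearest of them was 0.732 of the whole range of the group. All these values are near the level of 3 fragments, and the limit used is made to mark about 1 in 20 groups of normally spread values, which values at or near 0 are not.

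The change of B2m after the switch went down in 2i-14 and up in both deleted lines, a difference of -0.72 on the log2 scale between 2i-14 and the mean of the other lines. Tap1 did the same, with a difference of -0.61 on the log2 scale at levels under 1 FPKM. These differences were not tested. Tapbp was lower in both late TSa2i-14 libraries than at p22 and higher in late than in early TSa2i-C57, a difference of 1.54 on the log2 scale between the lines. Nlrc5 showed the same pattern, with a difference of 0.07 on the log2 scale (0.0676), near the level of 3 fragments. The differences between these lines were not tested either, and each rests on 1 library per line and stage, or 2 for late TSa2i-14.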

How the results depend on the processing

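The counts of members and of all genes called were recomputed under alternatives, as were the changes of 7 members in the first comparison and 6 in the second. Of these counts, 100 stayed within 1.5 times the main count or at 0, 32 moved further, 9 fell to 0 and 3 rose from 0. Of the members' changes, 185 kept their direction and side of the threshold, 11 lost the call, 7 gained it and 6 turned direction. In TSa2i/L against 2i/L, the 2 members called became 1 with no filter, with a mean FPKM of at least 5 or with TSa2i-14 only, 0 without the fibroblast-rich libraries, and 0 to 3 when a library was left out (1 without 2i-14 p18 or p50, 0 without p39). The 786 genes called became 374 with no filter, 458 at a mean FPKM of at least 5, 229 without the fibroblast-rich libraries, 468 with TSa2i-14 only, 1250 with the deleted lines joined to 2i-14, and 383 to 846 when a library was left out, with TSa2i-14 p47 (440), 2i-14 p18 (508), p39 (383) and p50 (454) decisive. After the switch, with no filter the 2 members and the 672 genes called became 0 and 0; the genes called became 369 at a mean FPKM of at least 5, 1505 with every 2i-14 passage as a control, 1483 with p18 and 1522 with p39 as the control, and 311 to 1461 when a line was left out (1031 without 2i-14, 1461 without 2i-O48, 311 without 2i-O48-TKO), with 2 members each time, which without 2i-O48-TKO were H2-K1 and Psmb9. Without the replicate block on the line, 2 members and 778 genes were called, against 2 members and 672 genes with it. A replicate block on the line in late against early libraries left 0 calls. Tapbp after the switch turned from 0.00 to -0.000857 with a pseudocount of 0.1, to -0.0634 with every 2i-14 passage, -0.223 with p18 and -0.0468 with p39 as the control, and ran from -0.178 (without 2i-14) and -0.135 (without 2i-O48) to 0.322 (without 2i-O48-TKO). In switched against TSa2i/L cultures, the 1 member called became 0 without the fibroblast-rich libraries and 0 to 1 when a library was left out (0 without switched 2i-O48 or switched 2i-O48-TKO). The 1504 genes became 628 with no filter, 923 with quantile normalization, 455 without the fibroblast-rich libraries and 516 to 2188 when a library was left out, lower by over 1.5 times without switched 2i-14 (905), switched 2i-O48 (516), switched 2i-O48-TKO (671), TSa2i-14 p47 (820) or p54 (791), or TSa2i-C57 p58 (980). The 12 genes called for the deleted lines became 0 with no filter and 0 to 20 when a library was left out (3 without 2i-O48, 0 without 2i-O48-TKO, 20 without 2i-14 p50). The 0 genes called in late against early libraries became 0 to 8 (8 without TSa2i-14 p47, 1 without p22 and 1 without TSa2i-C57 p9). Settings without libraries have fewer samples, and the lack of a filter adds low genes to the adjustment; the cause of the other changes was not tested. Over all alternatives the limma adjusted p ran from 0.00413 to 0.135 for Psmb9 and from 0.0161 to 0.286 for Psmb10 in the first comparison, and from 0.000868 to 0.143 and from 0.0051 to 0.177 in the second. Depth limits Tap2 and Nlrc5 throughout.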

Other observations

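MHC class II genes, which present peptides from outside the cell, were read beside the class I genes, and H2-Aa moved the other way from Psmb9 and Psmb10. H2-Aa, the alpha chain of a class II molecule, was 1.64 FPKM at p18, 1.62 FPKM at p39 and 7.49 FPKM at p50 in 2i-14, at most 0.639 FPKM in TSa2i/L, and 0.922 to 2.07 FPKM in the 3 switched cultures. It fell by 1.76 on the log2 scale in TSa2i/L (limma adjusted p = 0.0149) and by 1.64 after the switch (0.0204). It passed the filter on low values only through the libraries in 2i/L, where it was higher, with 0 of 5 TSa2i/L libraries and 1 of 3 switched cultures at 1 FPKM or more. The control of 2i-14 in the switch comparison was p50, its highest passage for H2-Aa, and the switched cultures overlapped p18 and p39. The call of H2-Aa with p18 or p39 as the control was not examined. H2-Eb1, a class II beta chain, was 40.1 to 134 FPKM in 2i/L, 32.7 to 67.1 FPKM after the switch and 13.03 to 41.5 FPKM in TSa2i/L, with log2 changes of -1.33 (limma adjusted p = 0.0588) and -0.61 (0.332). Ciita, the class II transactivator, was at most 0.0799 FPKM. Of the 11 leukocyte and class II markers 6 were tested in each of these comparisons: Cd68, a macrophage marker, rose in TSa2i/L (1.28, limma adjusted p = 0.0452), H2-Aa fell in both, and the others were not called.

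Of the other marker lists, the 10 pluripotent cell markers had none called in TSa2i/L and Nanog lower after the switch (-0.93, limma adjusted p = 0.0483), and the 15 fibroblast markers had 6 tested and none called in TSa2i/L. Of the 8 endoderm markers 2 were tested in TSa2i/L with none called, and the 1 tested after the switch, Sparc, was lower (-1.19, limma adjusted p = 0.0204).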
